A study of Mus musculus with 12 samples.

Results

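The aminoacyl-tRNA synthetases, the enzymes that load each amino acid onto its transfer RNA, were followed together with the non-enzymatic proteins of the complex in which several of them sit. The list holds 38 genes named by symbol, and a gene entered where the platform annotation ties a probe set to that symbol alone. Of the 38, 28 had such a probe set, and all 28 passed the filter on low signals: 18 cytosolic enzymes or subunits, 7 mitochondrial enzymes and 3 scaffold proteins, among 7945 genes tested in all. Dars, Mars, Aars2, Cars2, Lars2, Mars2, Nars2, Vars2, Wars2 and Yars2 are not analysed here.

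The cells were primary mouse embryonic fibroblasts (MEFs) taken at embryonic day 13.5 and grown to passage 2. They carried either intact Rb, the retinoblastoma tumor suppressor that holds E2F transcription factors in check, or no functional Rb (Rb null, Rb-/-). Each genotype was left untreated or received cisplatin, a platinum compound that forms adducts and crosslinks on DNA, at 16 µM over 24 h. This gave 4 groups with 3 Affymetrix arrays each, 12 arrays in all. The design text describes 4 RNA samples hybridized in triplicate, so the arrays of a group may share 1 RNA, and the p-values below then measure only the spread between hybridizations. Whether the Rb null cells came from 1 embryo or from several is not given in the sources used here.

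An aminoacyl-tRNA synthetase activates its amino acid with ATP and transfers it to the matching tRNA, and the cell needs this step for every codon that it translates. Enzymes of class I and class II differ in the fold of the catalytic domain. In animal cells the synthetases for glutamate and proline (fused in Eprs), isoleucine, leucine, methionine, glutamine, arginine, lysine and aspartate assemble with the scaffold proteins Aimp1, Aimp2 and Eef1e1 into the multisynthetase complex, and the mitochondrial enzymes are nuclear genes whose products are imported. When amino acids run short or the endoplasmic reticulum is stressed, phosphorylation of the initiation factor eIF2 raises translation of the transcription factor ATF4. ATF4, together with C/EBP partners, induces genes of amino acid synthesis, amino acid uptake and many cytosolic synthetases through a composite C/EBP-ATF element.

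Because many of these genes share that reported regulator, their promoters were searched for its element. RefSeq windows from 250 bases before to 50 bases after a transcript start (GRCm38.p6) were at hand for 19 of the 28 genes. The composite element TGATGNAA, read on either strand, occurred in 5 of the 19, namely Aars, Gars, Iars, Tars and Yars, against 3.97% of 32851 mouse promoter windows. All 5 belong to the 7 genes with a window that are reported ATF4 targets. The stretches below show the element in its surroundings, 5′ to 3′ on the gene's own strand, with capitals marking the composite element or, upstream in Aars, the E-box CACGTG. Positions are counted from the transcript start, with no base numbered 0.
Aars, chr8:111033670-111033777, + strand, -172 to -65: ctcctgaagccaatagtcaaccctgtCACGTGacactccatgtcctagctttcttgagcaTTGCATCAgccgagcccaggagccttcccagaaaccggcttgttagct
Aars, chr8:111033840-111033869, + strand, -2 to 28: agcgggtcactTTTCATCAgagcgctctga
Gars, chr6:55037911-55038000, + strand, -90 to -1: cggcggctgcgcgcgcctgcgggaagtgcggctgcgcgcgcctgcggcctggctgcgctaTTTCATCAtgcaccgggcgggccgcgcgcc
Iars, chr13:49682126-49682155, + strand, -4 to 26: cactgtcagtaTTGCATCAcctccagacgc
Tars, chr15:11399659-11399733, - strand, -75 to -1: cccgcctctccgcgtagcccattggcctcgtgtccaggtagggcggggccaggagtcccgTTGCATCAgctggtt
Yars, chr4:129189895-129189924, + strand, -8 to 22: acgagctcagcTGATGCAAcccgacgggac

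The element lay within 30 bases of the start in all 5 genes, at 10 to 17 in Aars, -30 to -23 in Gars, 8 to 15 in Iars, -15 to -8 in Tars and 4 to 11 in Yars. Aars held a second copy at -112 to -105. The E-box CACGTG was found in 5 of the 19 windows (Aars, Farsb, Iars, Tars and Ears2) against 7.15% of all windows. The E2F motifs TTTGGCGC and TTTCGCGC, searched on both strands, were found in 1 of the 19, that of Eef1e1, against 0.813% of all windows. A match is a stretch of letters and not a measured binding site. The 19 genes have 20 windows, and the transcript start used equals the annotated gene start for 11 of the 20.

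The arrays themselves behaved alike within a group. Pearson correlations of log2 signals were 0.978 to 0.988 within groups and 0.908 to 0.973 between groups, and every array had been scaled to a trimmed mean of 500.1 or 500.2. A lower signal is therefore lower relative to the rest of that array, and in cultured cells sampled in bulk fewer cells of a type and less RNA per cell cannot be told apart. Rb1 itself read 459.7 ± 35.4 (SD, n = 3 arrays) in wildtype cells without drug and 383 ± 60.1 with it, against 94.0 ± 9.99 and 89.6 ± 14.5 where Rb was null. Fibroblast markers passed the filter in 12 of 12 cases. Their summed signals were 62230 to 64877 in untreated wildtype and 62071.5 to 64341 in untreated Rb null cells. After cisplatin the sums were 56174 to 59061 in wildtype and 44928 to 45136 in Rb null cells. These sums join opposite moves. Between untreated and treated wildtype cells, mean Col1a1 went from 10363 to 4856 and mean S100a4 from 3805 to 9579. The 13 macrophage and leukocyte markers, 12 of them past the filter, summed to 5560 to 7740 in 3 groups and 11391 to 11916 in cisplatin wildtype cells. The 7 neural markers, 4 of them past the filter, summed to 5083 to 5600 in untreated and 1423 to 1787 in treated wildtype cells, and to 3117 to 3672 and 1917 to 2534 in the Rb null cultures. The untreated wildtype arrays alone carried the Y-linked transcript Eif2s3y (478 ± 7.90) and little Xist (132 ± 26.7), while Xist read 2379 to 3443 in the other 3 groups. The cisplatin effect in wildtype and the untreated genotype comparison therefore also compare cultures of different sex-linked RNA, from which drug and genotype cannot be told apart there. The comparison of untreated and treated Rb null cells does not use that group.

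Without cisplatin, the synthetases differed between genotypes by less than 1.5-fold. A gene is called where the Benjamini-Hochberg adjusted p of limma, over 13575 probe sets, is under 0.05 and the change is at least 1.5-fold. By that rule 0 of the 28 genes were called in untreated Rb null against untreated wildtype, where 8.07% of all 7945 genes were called higher and 5.08% lower, 13.2% in all. Of all 13575 probe sets, 4598 passed the adjusted threshold at any fold, so at least as many had an unadjusted p under 0.05. Of the 28 genes, 3 were higher and 6 lower at an unadjusted limma p under 0.05. By the adjusted threshold, 6 of the 28 passed with a smaller fold. The largest of these was Vars, valyl-tRNA synthetase, with 753, 782 and 729.6 on the untreated wildtype arrays and 1091, 1118 and 1029 on the untreated Rb null arrays. Its untreated groups did not overlap, with a log2 difference of 0.51 ± 0.071 (SE) and limma adjusted p = 5.98e-05. Nars, asparaginyl-tRNA synthetase, was on the other side at -0.40 ± 0.064 (adjusted p = 2.31e-04), and Aimp2 was at 0.40 ± 0.088 (adjusted p = 0.00300). Qars at -0.28, Sars at -0.23 and Gars at -0.17 completed the 6. The median log2 difference was -0.018 over the 28 genes and -0.0093 over all genes.

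After 24 h of cisplatin, transcripts of many cytosolic synthetases were lower in both genotypes, by about 1.5- to 4.5-fold, while the mitochondrial enzymes went in either direction and the scaffold genes moved less. In wildtype cells 9 of the 28 genes were called lower and 1 higher, against 12.7% lower and 14.8% higher among all genes. In Rb null cells 12 were called lower and 2 higher, against 20.3% and 16.6%. Either way, 27.5% of all genes were called in wildtype and 36.9% in Rb null cells. The lower calls were thus 32.1% of the 28 genes in wildtype and 42.9% in Rb null cells. Median log2 changes of the 28 genes were -0.35 in wildtype and -0.40 in Rb null cells, beside 0.057 and -0.017 over all genes. Centring each array on its median moves all Rb null cisplatin changes by 0.146 and leaves 9 genes called lower and 3 higher there, since Nars, Sars and Vars are no longer called and Aimp2 is. In the wildtype contrast the same centring leaves 9 lower and 1 higher.

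**Figure D1:**
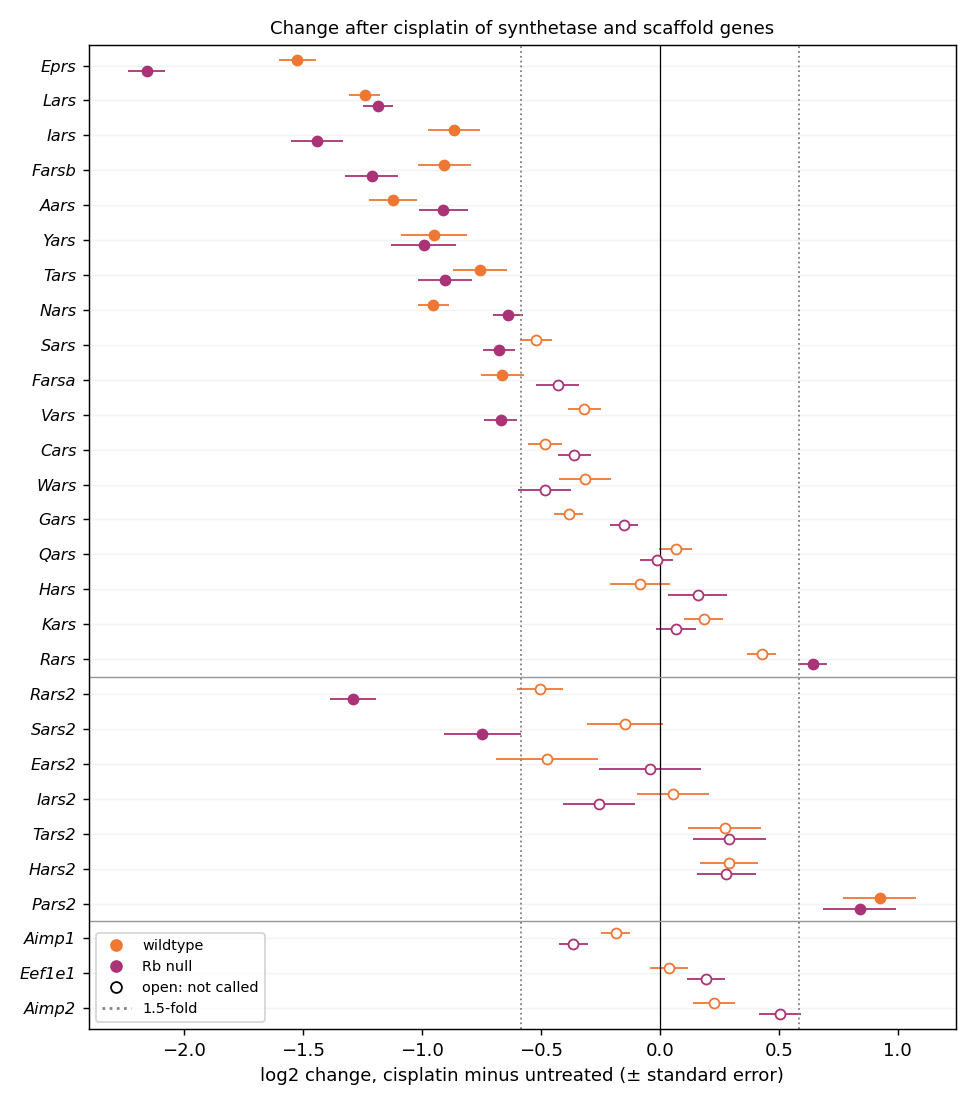
Log2 change after cisplatin (x axis, with its standard error) of the 28 genes, in wildtype (orange) and Rb null (purple) cells, with filled points for called genes and dotted lines at 1.5-fold. Cytosolic enzymes are at the top, where Eprs lies farthest left at -1.52 and -2.16, mitochondrial enzymes in the middle and scaffold proteins at the bottom.

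A total of 8 genes were called lower in both genotypes on the probe sets used: Aars, Eprs, Farsb, Iars, Lars, Nars, Tars and Yars. All are cytosolic enzymes. Pars2 alone was called higher in both. Over all genes, 12.7% were called lower and 14.8% higher in wildtype, so at most these shares were called in both genotypes. Farsa was called in wildtype only, and Rars, Sars, Vars, Rars2 and Sars2 in Rb null cells only, but of these 6 the difference between the genotypes' cisplatin effects was itself called for Rars2 only. The other 13 genes were called in neither. The 2 cisplatin contrasts use separate sets of arrays.

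Eprs, the fused glutamyl- and prolyl-tRNA synthetase of the multisynthetase complex, showed the largest fall of the 28 genes in both genotypes on the probe sets used. Its signals were 1566, 1692 and 1609 in untreated wildtype cells, 1443, 1615 and 1529.7 in untreated Rb null, 555, 536 and 581 in cisplatin wildtype and 317, 324 and 365 in cisplatin Rb null cells. Untreated arrays of both genotypes intermingled, whereas all treated arrays were below them and the treated Rb null arrays were below the treated wildtype arrays. The log2 change was -1.52 ± 0.078 in wildtype (adjusted p = 7.31e-10) and -2.16 ± 0.078 in Rb null cells (adjusted p = 1.35e-11), or 2.88- and 4.46-fold.

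Lars, leucyl-tRNA synthetase and also a reported leucine sensor of the mTORC1 pathway, read 2067, 1934 and 1973 in untreated wildtype cells, 2126, 2286 and 2166 in untreated Rb null, 868, 837 and 805 in cisplatin wildtype and 974, 912 and 990.3 in cisplatin Rb null cells. No treated array reached an untreated one. The changes were -1.24 ± 0.065 (adjusted p = 9.02e-10) in wildtype and -1.18 ± 0.065 (adjusted p = 8.87e-10) in Rb null cells. Their difference of 0.06 had a 95% interval from -0.14 to 0.25.

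Iars, isoleucyl-tRNA synthetase, gave 1981, 2646 and 2526 in untreated wildtype cells, 2333, 2538 and 2598 in untreated Rb null, 1201, 1352 and 1335 in cisplatin wildtype and 792, 930.4 and 1020.4 in cisplatin Rb null cells. Treated arrays were again all below untreated ones, and the treated Rb null arrays were the lowest. Iars fell by 0.86 on the log2 scale in wildtype (SE 0.11, adjusted p = 1.13e-05) and by 1.44 in Rb null cells (SE 0.11, adjusted p = 3.55e-08). The difference between these effects was -0.58 ± 0.16 (limma adjusted p = 0.00970) and, at 1.49-fold, just short of the fold minimum.

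Farsb, the beta subunit of phenylalanyl-tRNA synthetase, read 1251, 1088 and 1096 in untreated wildtype cells, 989, 1304 and 1221 in untreated Rb null, 554, 625 and 639 in cisplatin wildtype and 448, 490.3 and 557 in cisplatin Rb null cells. The treated groups overlapped each other but not the untreated groups. Its changes were -0.91 ± 0.11 (adjusted p = 8.04e-06) and -1.21 ± 0.11 (adjusted p = 2.56e-07). Farsa, the alpha subunit of the same enzyme, changed less, by -0.66 ± 0.090 (adjusted p = 2.23e-05) in wildtype and -0.43 ± 0.090 (adjusted p = 7.74e-04) in Rb null cells, where it was not called. Its untreated arrays spanned 798 to 1021 and its treated arrays 549 to 714. Without replicate 2 of the untreated wildtype arrays the wildtype change of Farsa was -0.57 and no longer called.

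Aars, alanyl-tRNA synthetase, gave 3878, 3813 and 3733 in untreated wildtype cells, 2819, 3428 and 3386 in untreated Rb null, 1443, 1869 and 1969.6 in cisplatin wildtype and 1633, 1739 and 1723 in cisplatin Rb null cells. The untreated Rb null arrays were all below the untreated wildtype arrays, and the treated groups overlapped. Aars fell by 1.12 in wildtype (SE 0.10, adjusted p = 3.49e-07) and by 0.91 in Rb null cells (SE 0.10, adjusted p = 2.07e-06) on the log2 scale.

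Nars read 6512, 6010.1 and 5918 in untreated wildtype cells, 4291, 4871 and 4820.0 in untreated Rb null, 3354, 3119 and 3042 in cisplatin wildtype and 3080.3, 2967 and 2911 in cisplatin Rb null cells. The genotypes were apart before treatment and overlapped after it. Its fall was accordingly -0.95 ± 0.064 in wildtype (adjusted p = 1.37e-08) and -0.64 ± 0.064 in Rb null cells (adjusted p = 6.47e-07). The difference of 0.31 ± 0.091 had an adjusted p of 0.0141 and was under 1.5-fold. On the second Nars probe set it was -0.29 ± 0.093 (adjusted p = 0.0242), so the sign of this difference rests on the probe set, while both probe sets were called lower in both genotypes.

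Yars, tyrosyl-tRNA synthetase, had signals of 1147, 1118 and 1212 in untreated wildtype cells, 1171, 1231 and 986 in untreated Rb null, 616, 552 and 617 in cisplatin wildtype and 464, 739 and 511 in cisplatin Rb null cells. The treated arrays were all below the untreated ones, with the widest spread in the treated Rb null group. The changes were -0.95 ± 0.14 (adjusted p = 4.03e-05) and -0.99 ± 0.14 (adjusted p = 1.81e-05). Tars, threonyl-tRNA synthetase, spanned 1278 to 1567 untreated and 572 to 892 after cisplatin, with changes of -0.76 ± 0.11 (adjusted p = 5.62e-05) and -0.90 ± 0.11 (adjusted p = 6.72e-06).

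Of the remaining cytosolic enzymes, Sars and Vars crossed the fold minimum in Rb null cells. Sars, seryl-tRNA synthetase, read 3533 to 4092 in untreated wildtype cells, 3046 to 3323 in untreated Rb null, 2489 to 2709 in cisplatin wildtype and 1914 to 2045 in cisplatin Rb null cells, so that no groups overlapped. Its changes were -0.52 ± 0.067 in wildtype and -0.68 ± 0.067 in Rb null cells. The difference between them, -0.15, had a 95% interval from -0.36 to 0.05. Vars, which began higher in Rb null cells, read 576 to 621 in cisplatin wildtype and 655 to 696 in cisplatin Rb null cells. Vars changed by -0.32 ± 0.071 in wildtype and -0.67 ± 0.071 in Rb null cells (adjusted p = 0.00154 and 1.07e-06), a difference of -0.35 ± 0.10 (adjusted p = 0.0126) that was under 1.5-fold.

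Rars, arginyl-tRNA synthetase, went the other way. Its signals were 2673, 2379.5 and 2643 in untreated wildtype cells, 2412, 2265 and 2315 in untreated Rb null, 3549.9, 3564 and 3242 in cisplatin wildtype and 3633, 3677 and 3613 in cisplatin Rb null cells. Every treated array was above every untreated array. The change was 0.43 ± 0.062 in wildtype (adjusted p = 3.77e-05), under the fold minimum, and 0.64 ± 0.062 in Rb null cells (adjusted p = 4.02e-07), where it was called. After quantile normalization Rars was no longer called in Rb null cells. Hence within the complex Eprs, Iars and Lars fell in both genotypes while Rars rose in Rb null cells, and Kars and Qars, the lysyl and glutaminyl enzymes, changed by 0.18 and 0.07 in wildtype and 0.07 and -0.01 in Rb null cells.

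Cars, Gars and Wars, the cysteinyl, glycyl and tryptophanyl enzymes, stayed under 1.5-fold. Cars read 1253 to 1440.4 untreated and 932 to 1052 after cisplatin, with changes of -0.48 and -0.36. Gars read 4406 to 5521 untreated and 3853 to 4167 treated, with changes of -0.38 and -0.15. Treated and untreated arrays of these 2 genes did not overlap. Wars was at -0.31 and -0.48 on the probe set used. Hars, histidyl-tRNA synthetase, spanned 963 to 1454 over all arrays with changes of -0.08 and 0.16. On the probe set used, Qars separated by genotype instead: it read 1279.6 to 1336 on the 6 Rb null arrays and 1488 to 1794 on the 6 wildtype arrays, and its genotype differences were -0.28 untreated (adjusted p = 0.00606) and -0.36 after cisplatin (adjusted p = 6.11e-04), both under 1.5-fold. Its other 2 tested probe sets passed the adjusted threshold in neither comparison.

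**Figure D2:**
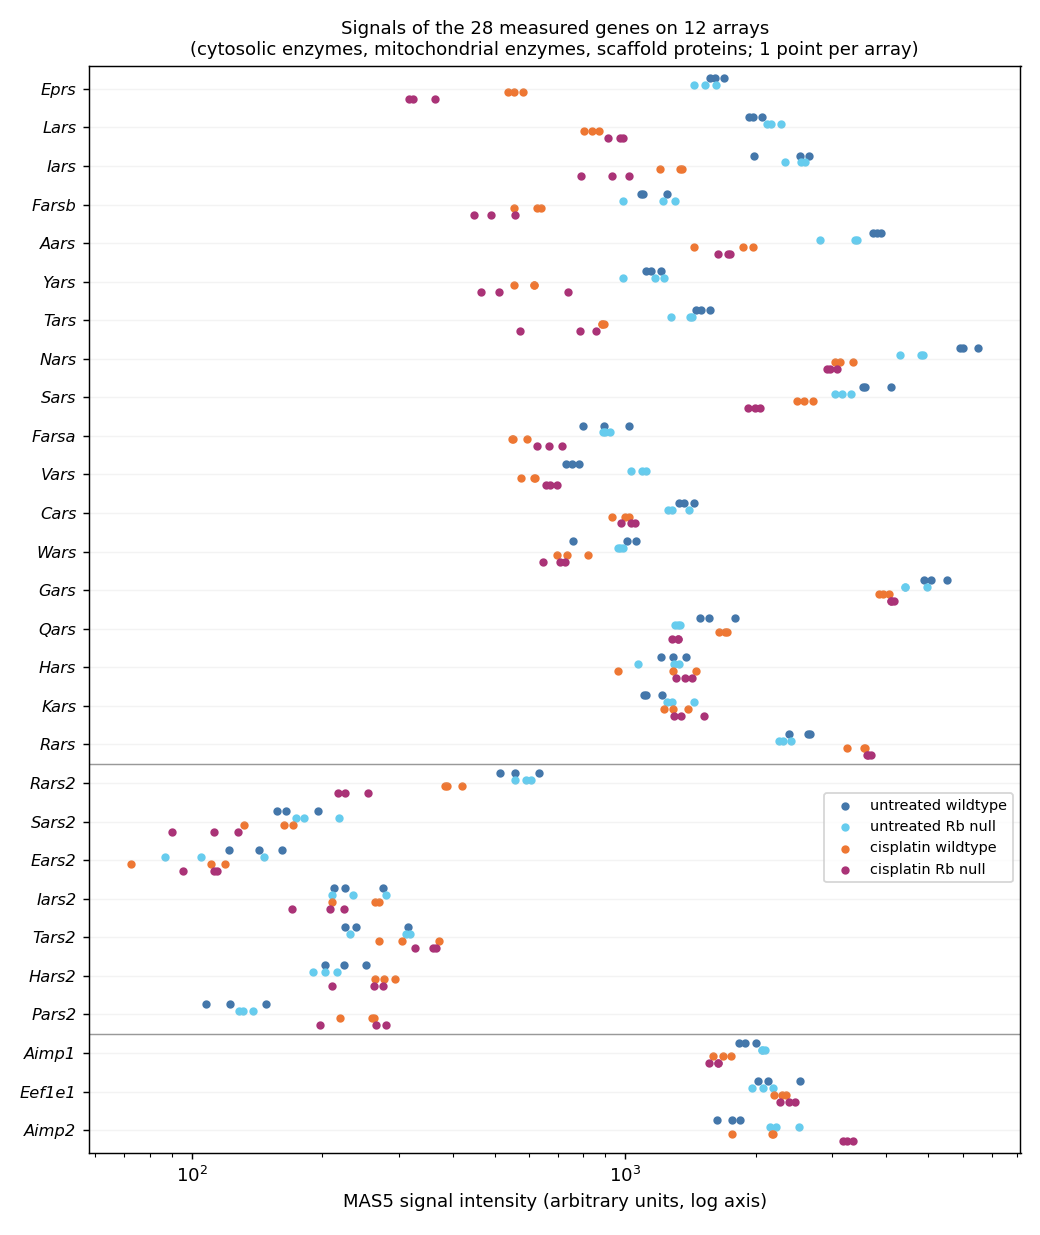
Signal intensity (x axis, logarithmic) of the 28 genes on each of the 12 arrays, 1 point per array, colored by group. For Eprs the 6 untreated arrays lie between 1443 and 1692 and the treated Rb null arrays, at 317 to 365, lie left of the treated wildtype arrays, whereas for Rars the treated arrays lie to the right.

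The mitochondrial enzymes did not share a direction. Rars2, the mitochondrial arginyl-tRNA synthetase, read 633, 558 and 515 in untreated wildtype cells, 557, 589 and 607 in untreated Rb null, 384, 389 and 419 in cisplatin wildtype and 218, 256 and 226 in cisplatin Rb null cells. Untreated groups overlapped, treated wildtype was below them and treated Rb null was the lowest group without overlap. The change was -0.50 ± 0.097 in wildtype (adjusted p = 4.87e-04), under 1.5-fold, and -1.29 ± 0.097 in Rb null cells (adjusted p = 2.81e-08), or 2.45-fold.

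Pars2, the mitochondrial prolyl-tRNA synthetase, rose. It read 149, 123 and 108 in untreated wildtype cells, 138, 131 and 129 in untreated Rb null, 261, 264 and 220.3 in cisplatin wildtype and 281, 266 and 198 in cisplatin Rb null cells. The lowest treated array, at 198, was above the highest untreated array, at 149. Changes were 0.92 ± 0.15 (adjusted p = 1.37e-04) and 0.84 ± 0.15 (adjusted p = 2.31e-04). Its signals are low, and on the log2(value + 10.4) scale used here the change of a weak gene is understated.

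Sars2, the mitochondrial seryl enzyme, read 158 to 196 in untreated wildtype cells, 174 to 219 in untreated Rb null, 132 to 171 in cisplatin wildtype and 90.3 to 128 in cisplatin Rb null cells. Sars2 changed by -0.15 ± 0.16 in wildtype, where the groups overlapped, and by -0.75 ± 0.16 in Rb null cells (adjusted p = 9.34e-04), where it was called lower. The difference of -0.60 ± 0.23 had an adjusted p of 0.0518. Hars2 at 0.29 and 0.28, Tars2 at 0.27 and 0.29, Iars2 at 0.06 and -0.26 and Ears2 at -0.48 and -0.04 were called in neither genotype. Ears2, the mitochondrial glutamyl enzyme, lay closest to the filter, with a mean log2 value of 6.95 against a minimum of 6.85, and its arrays spanned 72.6 to 162.

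The scaffold proteins of the complex were not called for cisplatin in either genotype, with Aimp1 at -0.19 and -0.36, Aimp2 at 0.23 and 0.50 and Eef1e1 at 0.04 and 0.19. Aimp1 (adjusted p = 0.0191 and 1.10e-04) and Aimp2 (adjusted p = 0.0410 and 1.60e-04) passed the adjusted threshold in both genotypes without reaching 1.5-fold, in opposite directions. Eef1e1 (adjusted p = 0.711 and 0.0438) passed it in Rb null cells. The multisynthetase complex as listed was thus mixed. Of its 9 genes tested, scaffold proteins included, 3 were called lower in wildtype, 3 lower and 1 higher in Rb null cells, with medians of 0.04 and -0.01. Over all genes 12.7% were called lower in wildtype, and 20.3% lower and 16.6% higher in Rb null cells.

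Between the treated cultures, 3 of the 28 genes were called, 1 higher and 2 lower in Rb null than in wildtype cells, where 9.67% of all genes were called higher and 13.3% lower, 23% in all. Eprs was lower by -0.72 ± 0.078 (adjusted p = 3.68e-06) and Rars2 by -0.75 ± 0.097 (adjusted p = 1.93e-05). Aimp2, a scaffold protein that also has reported roles in cell death and growth control, was higher. It read 1761, 1624 and 1839 in untreated wildtype cells, 2518, 2221 and 2153 in untreated Rb null, 2185, 2197 and 1764 in cisplatin wildtype and 3244, 3344 and 3172 in cisplatin Rb null cells. Rb null arrays were above wildtype arrays both untreated and treated. Its difference after cisplatin was 0.67 ± 0.088 (adjusted p = 2.22e-05), or 1.59-fold, and without replicate 3 of the cisplatin wildtype arrays it was 0.57 and no longer called. A further 7 genes passed the adjusted threshold with a smaller fold. At any fold, 6968 of all 13575 probe sets passed it. Medians were -0.048 over the 28 genes and -0.051 over all genes.

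On the probe sets used, the difference between the genotypes' cisplatin effects was called for 2 of the 28 genes, both with the lower value in Rb null cells, where 15% of all genes were called in that direction, 8.7% in the other and 23.7% in either. At an unadjusted limma p under 0.05, 5 of the 28 had a lower and 4 a higher value in Rb null cells. Of all 13575 probe sets, 5109 passed the adjusted threshold at any fold, and at least as many passed the unadjusted one. Eprs differed by -0.63 ± 0.11 (adjusted p = 4.62e-04) and Rars2 by -0.79 ± 0.14 (adjusted p = 4.47e-04). Eprs was no longer called here after median centring, after quantile normalization or with a pseudocount of 45.8, and Rars2 stayed called under those 3 settings. Median centring moves all differences between the effects by 0.101. Iars, Vars, Nars and Gars passed the adjusted threshold with less than 1.5-fold, the first 2 with the lower change in Rb null cells and the last 2 with the lower change in wildtype cells. This contrast uses all 4 groups, including the untreated wildtype arrays of different sex-linked RNA.

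Over the 4 groups, cisplatin Rb null cells had the lowest mean for 14 of the 28 genes, cisplatin wildtype for 6, and each untreated group for 4. No such ranking was made over all genes, of which 20.3% were called lower and 16.6% higher after cisplatin in Rb null cells. The ranking therefore does not set the 28 genes apart from other genes. The highest mean was in untreated wildtype for 10 genes, in untreated Rb null for 8, in cisplatin Rb null for 7 and in cisplatin wildtype for 3. Many of these neighbouring means were within the spread of their arrays, as for Iars2, whose group means ran from 201 ± 27.8 to 248 ± 32.7 (SD, n = 3).

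Several genes were measured by more than 1 probe set, which gave a check within the arrays. For 11 genes, 16 further probe sets passed the filter, and their change had the same sign as that of the probe set used in 13 cases in wildtype and 14 in Rb null cells, with the same call in 12 and 12. The sign was the same for 10 of the 16 in the untreated and 14 in the treated genotype contrast. For the difference between the cisplatin effects it was the same for 8 only, with the same call in 13. Both Aars, both Iars and both Nars probe sets were called lower in both genotypes. For Eprs the other 2 probe sets gave -0.41 (not called) and -0.76 in wildtype and -1.85 and -0.82 in Rb null cells. One of them showed a genotype difference after cisplatin of -1.51 and the other of -0.29, which was not called, and the difference between the cisplatin effects was -1.44 on the first and -0.06 on the second (adjusted p = 0.852). The 3 Eprs probe sets thus shared the direction of the cisplatin change and not its size, and the second gave no called difference between genotypes.

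The brightest Wars probe set carries a suffix that marks possible cross-hybridization and was not used. On it Wars was called lower in both genotypes, at -1.01 ± 0.15 and -0.76 ± 0.15, and a further probe set without that suffix gave -0.78 ± 0.11 and -0.72 ± 0.11, both called. The remaining tested Wars probe set, also with that suffix, gave -0.57 ± 0.15 and -0.51 ± 0.15. Like the one used, it was called in neither genotype. Whether Wars counts as called therefore rests on the choice of probe set. For Farsb the other tested probe sets gave -0.55 and -0.60 in wildtype and -1.32 and -0.44 in Rb null cells. Of these, -0.55 and -0.44 were not called, so neither probe set was called in both genotypes. Their differences between the cisplatin effects were -0.77 (called, adjusted p = 0.00234) and 0.16 (adjusted p = 0.353). The former is from a probe set with a suffix for possible cross-hybridization. A second Tars2 probe set, with a cross-hybridization suffix, was called higher in Rb null cells at 0.82 ± 0.17. On the second Sars probe set the treated genotypes differed by -0.59 ± 0.080, which was called. On the second Aimp2 probe set the treated genotypes also differed, by 0.72 ± 0.096 (adjusted p = 2.53e-05), but the untreated difference was 0.06 (adjusted p = 0.688) and the wildtype cisplatin change -0.12 (adjusted p = 0.318). The difference between the cisplatin effects was called there, with the higher value in Rb null cells, at 0.66 ± 0.14 (adjusted p = 0.00163), which it was not on the probe set used, at 0.28 ± 0.12 (adjusted p = 0.0980). For Qars the genotype difference seen on the probe set used was not found on the other 2 tested probe sets, both with a suffix for possible cross-hybridization. They gave -0.18 (adjusted p = 0.231) and -0.22 (adjusted p = 0.249) untreated and 0.04 (adjusted p = 0.806) and -0.20 (adjusted p = 0.252) after cisplatin.

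**Figure D3:**
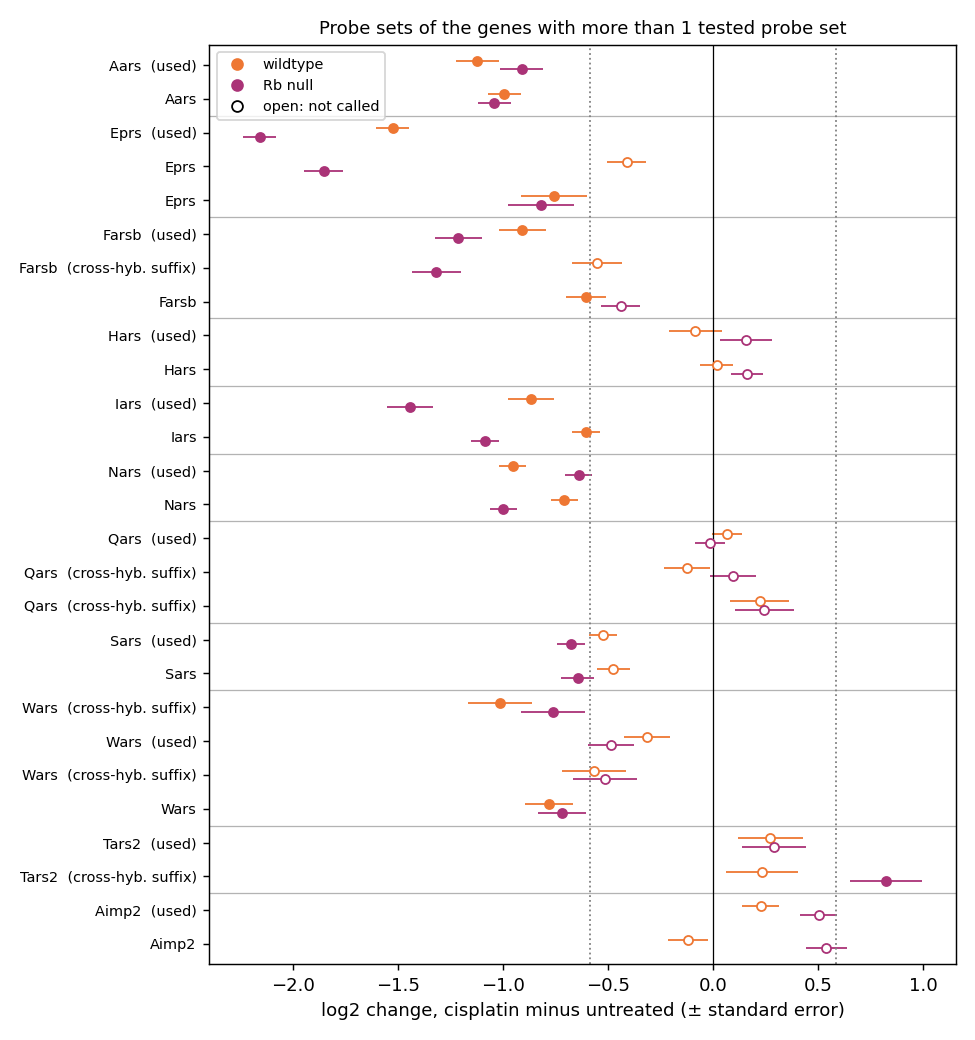
Log2 change after cisplatin (x axis, with its standard error) on each probe set of the 11 genes with more than 1 tested probe set, in wildtype (orange) and Rb null (purple) cells, with filled points for called changes and dotted lines at 1.5-fold. The 3 Eprs probe sets all lie left of 0, from -0.41 to -2.16, and 3 of the 4 Wars probe sets show larger falls than the one used in wildtype cells.

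Sorted by class, the falls were not limited to one catalytic fold. Of 8 cytosolic class I enzymes tested, 3 were called lower in wildtype and 4 in Rb null cells. Of 9 class II enzymes or subunits, 5 were called lower in each. Among all genes 12.7% were called lower in wildtype and 20.3% in Rb null cells. Medians were -0.40 and -0.58 for class I and -0.66 and -0.64 for class II. Eprs holds both an enzyme of class I and one of class II and was left out of this count.

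Sorted by regulator, 11 of the measured genes are reported ATF4 targets: Aars, Cars, Eprs, Gars, Iars, Lars, Nars, Sars, Tars, Wars and Yars. The log2 change of all 11 was below 0 in both genotypes. In wildtype 7 of the 11 were called lower and in Rb null cells 8, with medians of -0.86 and -0.90. Of the other 7 cytosolic genes (Farsa, Farsb, Hars, Kars, Qars, Rars and Vars) 2 were called lower in each genotype, and the medians were -0.08 and -0.01. Beside these counts, 12.7% of all genes were called lower in wildtype and 20.3% in Rb null cells. The list of reported targets was drawn up with earlier results of these data known, so the split is a description.

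The genes whose promoter window holds the composite element overlap this list. Of the 5 genes with the element shown above, 4 were called lower in wildtype and the same number in Rb null cells, with Gars as the one not called. Of the 14 measured genes with a window that lacks it, 3 and 5 were called lower. Over all tested genes with a window, 20.7% of 169 genes with the element were called lower in wildtype against 12% of 6327 without it, and 29.6% against 19.9% in Rb null cells. Called higher were 37 of the 169 and 935 of the 6327 in wildtype, and 37 and 1040 in Rb null cells. The share called higher was thus also larger with the element. Median changes with and without the element were 0.082 and 0.059 in wildtype and -0.17 and -0.011 in Rb null cells.

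Genes of the ATF4 program outside the synthetases were called in both directions. Of 31 tested, 18 were called lower and 5 higher in wildtype, and 16 lower and 8 higher in Rb null cells, with median changes of -0.73 and -0.76. Over all genes 12.7% were lower and 14.8% higher in wildtype, and 20.3% and 16.6% in Rb null cells. In both genotypes 15 were lower and 4 higher, namely Atf3, Cebpb, Slc1a5 and Ddit4. Over all genes, the shares called in both genotypes can be at most 12.7% lower and 14.8% higher. Psph, which completes serine synthesis, changed by -1.77 ± 0.12 and -1.68 ± 0.12, from means of 988 and 750.3 untreated to 284 and 227 treated. Pck2, the mitochondrial PEP carboxykinase, changed by -1.65 ± 0.096 and -1.86 ± 0.096. Mthfd2, of mitochondrial folate metabolism, changed by -1.66 ± 0.072 and -0.79 ± 0.072 in wildtype and Rb null cells. Aldh18a1, of proline synthesis, changed by -1.60 ± 0.31 and -2.07 ± 0.31. Chac1, which degrades glutathione, changed by -0.80 ± 0.11 and -1.70 ± 0.11. Asns, asparagine synthetase and a standard ATF4 target, changed by -0.84 ± 0.097 (adjusted p = 4.10e-06) and -1.06 ± 0.097 (adjusted p = 2.46e-07).

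The regulators of this program, given here with the transporter gene Slc1a5, did not follow the same course. Atf4 itself read 3208 ± 244 and 2348 ± 126 (SD, n = 3) in untreated and treated wildtype cells and 3287 ± 86.8 and 3416 ± 148 in Rb null cells. Its changes of -0.45 ± 0.067 and 0.05 ± 0.067 were not called, and its protein was not measured. Ddit3, which encodes the stress transcription factor CHOP, was called in opposite directions, at -0.73 ± 0.13 in wildtype (adjusted p = 1.85e-04) and 1.43 ± 0.13 in Rb null cells (adjusted p = 1.57e-07), with a difference of 2.16 ± 0.18 (adjusted p = 5.46e-07). Atf3, a stress-induced repressor and activator, rose by 3.17 ± 0.29 and 4.39 ± 0.29. Ppp1r15a, the stress-induced subunit of an eIF2 phosphatase, changed by 0.40 ± 0.093 in wildtype, which was not called, and by 2.54 ± 0.093 in Rb null cells. Slc1a5, a glutamine transporter, rose by 2.48 ± 0.23 and 0.85 ± 0.23. Trib3, a pseudokinase that binds ATF4, changed by -0.85 ± 0.13 (called) and -0.50 ± 0.13 (not called).

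**Figure D4:**
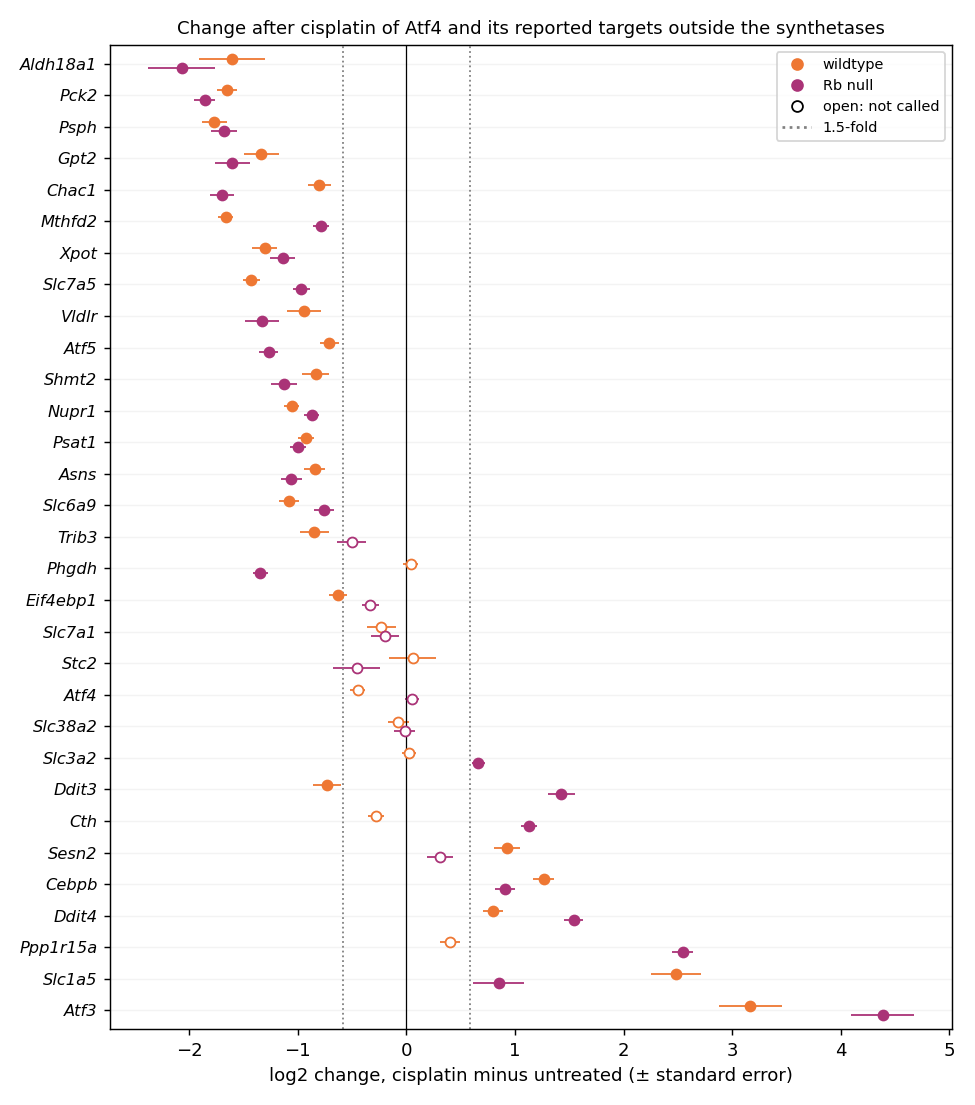
Log2 change after cisplatin (x axis, with its standard error) of the 31 tested genes among Atf4 and its reported targets outside the synthetases, in wildtype (orange) and Rb null (purple) cells, with filled points for called changes. Psph (-1.77 and -1.68) and Pck2 (-1.65 and -1.86) lie at the left, and Atf3 (3.17 and 4.39) lies at the right.

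Outside the 28 genes, 7 further genes of tRNA charging and transport were tested and 3 were called lower in each genotype, 1 of them a mitochondrial synthetase that the list does not hold. Over all genes 12.7% were called lower in wildtype and 20.3% in Rb null cells. Xpot, the exportin of tRNA, changed by -1.30 ± 0.12 and -1.14 ± 0.12, Fars2, the mitochondrial phenylalanyl enzyme, by -1.54 ± 0.18 and -1.51 ± 0.18, and Aarsd1, an editing protein related to alanyl-tRNA synthetase, by -0.60 ± 0.14 and -1.15 ± 0.14. Of 32 tested genes of tRNA processing and modification, 4 were called higher in wildtype (Pop4, Pop5, Qtrt1 and Qtrt2), where 14.8% of all genes were called higher. In Rb null cells 6 were called higher and 4 lower, beside 16.6% and 20.3% of all genes. Pop4 and Pop5, subunits of the RNase P and RNase MRP enzymes, rose by 1.83 ± 0.10 and 0.96 ± 0.10 in wildtype and by 1.40 ± 0.10 and 1.21 ± 0.10 in Rb null cells. Qtrt1, of the enzyme that places queuosine in tRNA, rose by 0.73 ± 0.16 and 0.97 ± 0.16, and Elp3, of the Elongator complex that modifies tRNA, was lower in Rb null cells at -0.88 ± 0.097. The list had a median change of 0.08 for wildtype and -0.01 for Rb null cells.

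RNA polymerase III, which transcribes tRNA genes, had 1 of 15 tested genes called higher in wildtype (Gtf3a, 0.60), and 4 higher and 2 lower in Rb null cells. The latter were led by Gtf3c5 (1.12), Gtf3c4 (0.98), Gtf3a (0.82) and Polr3c (-0.77). Of 28 translation initiation factors, 2 were called higher and 1 lower in each genotype. Eif2b4, of the exchange factor that reloads eIF2, was higher in both, at 0.66 and 0.71, beside Eif2s3x (0.70) in wildtype and Eif4a2 (0.59) in Rb null cells. The lower one was Eif4g3, a scaffold of cap binding, at -0.91 ± 0.11 and -1.62 ± 0.11. Of 10 elongation factors, Eef2k, the kinase of elongation factor eEF2, was called lower in both, at -0.79 and -0.96, and Gfm2 in Rb null cells, at -0.66. Among 7 eIF2 kinases and amino acid sensing genes, Rragc (0.66) and Mtor (-1.25) were called in Rb null cells, and Mtor read -0.55 in wildtype (adjusted p = 0.00257), under the fold minimum. Beside these lists, 14.8% of all genes were called higher and 12.7% lower in wildtype, and 16.6% and 20.3% in Rb null cells.

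The genes also differ in length, a feature that the selection did not use. Across the 28 genes the Spearman correlation of annotated gene span (GRCm38.p6) with the cisplatin change was -0.605 for wildtype and -0.622 for Rb null cells, so longer genes had the lower values. Within the 18 cytosolic genes it was -0.484 and -0.56. The same relation ran over 7937 tested genes with a span, at -0.313 and -0.406. These are descriptions over genes that share the same arrays, and genes are not independent replicates. The 5 longest of the 28 were Farsb at 70.9 kb, Eprs at 66.9 kb, Lars at 59.9 kb, Iars at 52.1 kb and Rars2 at 45.2 kb, beside a median of 21.9 kb over all genes. The first 4 were called lower in both genotypes and Rars2 in Rb null cells. At the other end Pars2 spans 4.21 kb, Aimp2 7.14 kb and Qars 7.94 kb, and none of these was called lower. Cars at 42.9 kb, Iars2 at 42.8 kb and Gars at 41.5 kb are long as well and were not called. Shorter than the median of all genes, Tars at 16 kb and Nars at 16.9 kb were called lower in both genotypes. So were Farsa at 12.3 kb in wildtype, and Sars2 at 11.9 kb, Vars at 15.4 kb and Sars at 20.4 kb in Rb null cells. The correlation of span with the difference between the cisplatin effects was -0.278 over the 28 genes and -0.226 over all genes.

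**Figure D5:**
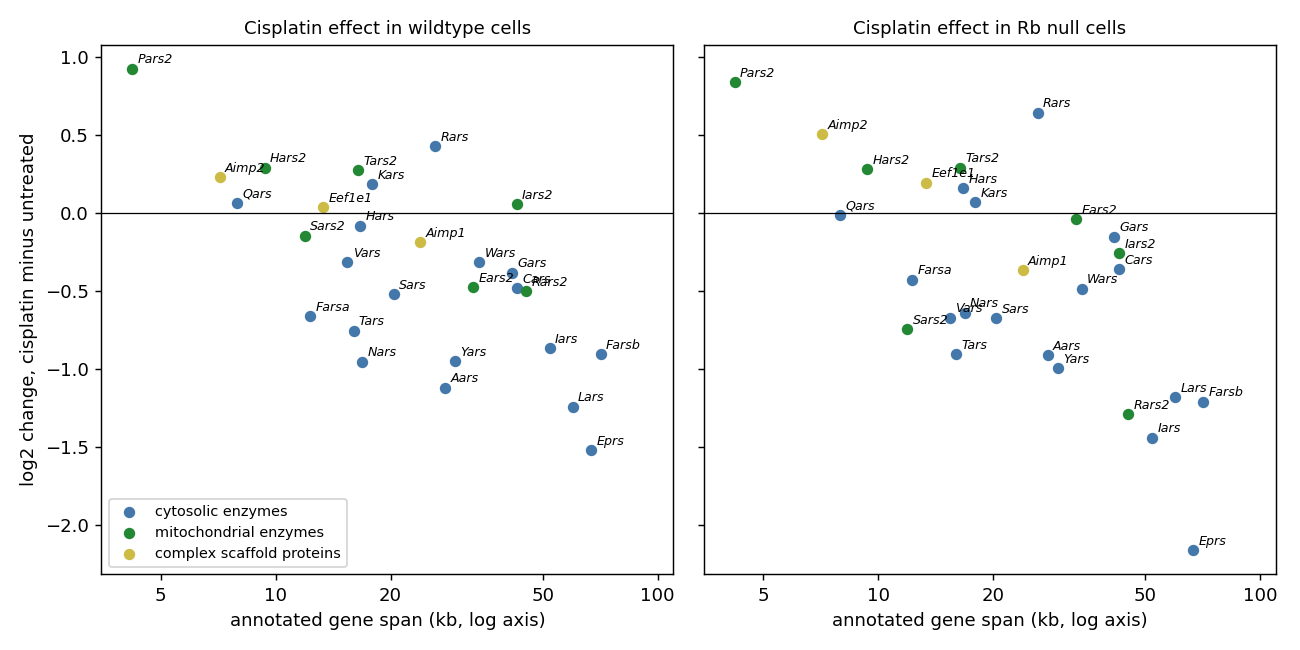
Log2 change after cisplatin (y axis) against annotated gene span in kb (x axis, logarithmic) for the 28 genes, in wildtype (left) and Rb null (right) cells, with cytosolic enzymes in blue, mitochondrial enzymes in green and scaffold proteins in yellow. Points run from Pars2 at 4.21 kb and 0.92 in the upper left to Eprs at 66.9 kb and -1.52 in the lower right of the wildtype panel, while Gars and Iars2, at 41.5 and 42.8 kb, lie at -0.38 and 0.06 there.

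The ratio of 3′ to 5′ signal, a measure of RNA integrity, was 1.10 to 1.23 on untreated and 1.19 to 1.32 on treated arrays for actin, and 0.759 to 0.800 and 0.782 to 0.881 for Gapdh. Of the 12 macrophage and leukocyte markers past the filter, 5 were called higher after cisplatin in wildtype, while 9 were called lower and 2 higher in Rb null cells. Of the 12 fibroblast markers, 4 were called higher and 4 lower in wildtype, and 5 lower in Rb null cells. Over all genes 14.8% were called higher and 12.7% lower in wildtype, and 16.6% and 20.3% in Rb null cells. Between the treated cultures 8 fibroblast markers were called lower in Rb null cells, where 13.3% of all genes were. The part of these marker shifts, and of the neural and sex-linked transcripts, in the synthetase changes was not tested.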

How the data were processed

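RNA of mouse embryonic fibroblasts was extracted with Trizol and hybridized to 12 arrays, 3 in each of 4 groups, from 6 µg each, per the labels' protocols. What the authors deposited is an intensity for every probe set, computed with MAS5 per the submitters' processing notes. Its version, scaling target and detection calls are not given in the sources used here. The number of arrays limits the precision.

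From the deposited intensities, log2(value + 10.4) was taken, 10.4 being the 10th percentile of all values. Of 22690 probe sets, 64 controls and the 40% with the lowest mean log2 value were left out, and 13575 were tested. The platform annotation, which can be old, gave 1 symbol for 20380 probe sets, several for 691 and none for 1555. Each of 7945 genes was represented by 1 probe set, the one with the highest mean among those without a cross-hybridization suffix (_x_at and the like) where one existed.

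limma 3.58.1 in R 4.3.3 fitted a mean per group over all 12 arrays, with eBayes and a variance trend (8 residual and 6.09 prior degrees of freedom), for 5 contrasts: the genotypes untreated, the genotypes after cisplatin, cisplatin in each genotype and the difference between the latter. Benjamini-Hochberg adjustment ran over all probe sets tested, and the code was tested on simulated data. Fold changes are on the log2(value + 10.4) scale. The members and gene lists were chosen with earlier results of these data known, so lists are described by counts and medians without a test. Genes named in full were the 6 called with the largest rise or fall per contrast, and every called gene where a direction held 5 or fewer. Of each related list, up to 4 called genes with the largest change or all where 5 or fewer were named, with Atf4, Ddit3, Asns and Trib3 always. Other members are given because every member is accounted for.

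Replicate labels 1 to 3 and a to c did not pair arrays across genotypes: deviations of same-labelled arrays correlated at -0.186 to 0.109. Promoters and gene spans come from RefSeq tables of GRCm38.p6. Alternatives concerned the pseudocount, the filter, normalization, probe set, fold minimum, variance prior, the groups in the fit, a replicate block and leaving out each array.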

Additional observations from a re-analysis of the deposited data

Results flagged for a closer look

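The cisplatin effect of Eprs and Rars2 differed between the genotypes by a test of that difference (the interaction contrast of limma, Benjamini-Hochberg adjusted) and by at least 1.5-fold. The difference, Rb null minus wildtype, was -0.632 for Eprs (adjusted p = 4.62e-04), from a wildtype change of -1.52 and an Rb null change of -2.16. It was not called for Eprs after median centring, after quantile normalization or with a pseudocount of 45.8. On the other Eprs probe sets the difference was -1.44 and -0.06 (adjusted p = 0.852 for the latter). For Rars2 it was -0.789 (adjusted p = 4.47e-04), from a wildtype change of -0.50 and an Rb null change of -1.29. By the adjusted p alone 4 more of the 28 genes passed that test, with differences under 1.5-fold: Iars at -0.58 (adjusted p = 0.00970), Vars at -0.35 (adjusted p = 0.0126), Nars at 0.31 (adjusted p = 0.0141) and Gars at 0.23 (adjusted p = 0.0457).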

How the results depend on the processing

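The fold minimum set the counts of called genes most. Without it 6, 10, 19 and 6 of the 28 genes passed in the untreated genotype contrast, the treated genotype contrast, the wildtype cisplatin contrast and the difference between the cisplatin effects, against 0, 3, 10 and 2 with it. Of all 13575 probe sets, 4598, 6968, 7413 and 5109 passed in the same contrasts without the minimum. At a minimum of 2-fold, 0, 3, 5 and 0 were called in the treated genotype contrast, cisplatin in wildtype, cisplatin in Rb null cells and the difference. Over all 13575 probe sets those counts were 928, 1581, 2352 and 1191. The difference kept 1 call (Rars2) with a pseudocount of 45.8, the 25th percentile, and 1 with median centring.
The median change after cisplatin was -0.482 for wildtype and -0.485 for Rb null cells when 60% of probe sets were left out, which removes the weakest genes. It was -0.43 in wildtype with the brightest probe set whatever its suffix, and -0.251 in Rb null cells with median centring, which turned the median difference between the effects to 0.0396. Leaving out each array in turn gave 0 to 0, 2 to 4, 9 to 10, 14 to 14 and 2 to 3 called genes in the 5 contrasts, and a median difference between the effects of -0.106 to 0.0335.
Of 29 single calls, none reversed. Over 737 refits 705 calls were kept and 32 lost, 21 of them at the 2-fold minimum. With the replicate block, 0, 3, 10, 14 and 3 genes were called, Sars2 being the one added. Taking each group as a single sample gave medians and folds only, with no calls. The causes of these shifts were not tested beyond what each setting does by construction.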

Other observations

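Several genes around the synthetases were called between genotypes. Of the 31 tested genes of the ATF4 list, 6 were called higher and 6 lower in Rb null than in wildtype cells after cisplatin, beside 9.67% higher and 13.3% lower among all genes. In untreated Rb null cells 3 were called lower, beside 5.08% of all genes, and 13 more passed the adjusted threshold alone. Of all 13575 probe sets, 4598 passed that threshold at any fold. Untreated, Ddit3 was at -1.27 ± 0.13 (SE), Nupr1, a stress-induced chromatin protein, at -1.14 ± 0.069 and Trib3 at -0.65 ± 0.13. After cisplatin Ppp1r15a was higher in Rb null cells at 1.67 ± 0.093 and Cth, of cysteine synthesis, at 1.21 ± 0.074, whereas Phgdh, which opens serine synthesis, was at -1.17 ± 0.068 and Slc1a5 at -1.15 ± 0.23.

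In the tRNA and translation lists, the treated genotypes were set apart by Adat2, a tRNA deaminase subunit, at 1.25 ± 0.073, Gtf3c5, a subunit of transcription factor IIIC, at 0.98 ± 0.13, Eif2ak2, the eIF2 kinase PKR, at 0.93 ± 0.10, Mtor at -0.95 ± 0.13 and Eif4g3 at -0.77 ± 0.11, all Rb null minus wildtype. The difference between the cisplatin effects was 1.10 ± 0.10 for Adat2, 0.75 ± 0.15 for Eif2ak2 and -0.70 ± 0.18 for Mtor. These values are from the limma fit, with adjusted p of 2.02e-06, 0.00111 and 0.00843 for the last 3.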
